A study of Mus musculus with 185 samples.

Results

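The 10 genes Snai1, Snai2, Twist1, Twist2, Zeb1, Zeb2, Prrx1, Prrx2, Meox1 and Meox2 encode transcription factors of mesenchymal cells, and were taken by name from the 17171 genes measured in single cells of mouse heart, 152 from infarcts and 33 from uninjured tissue. All 10 were found in the data. The cells were interstitial cells without CD31 and CD45, surface markers of endothelial and blood cells, captured 1 by 1 on the Fluidigm C1 system in 4 captures. All came from adult mice of about 5 months on a C57BL/6 background (backcross N=6).

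In Postn MCM/+; R26-eGFP mice a tamoxifen-inducible Cre (MerCreMer) sits in 1 copy of the periostin gene, and in Tcf21 MCM/+; R26-eGFP mice in 1 copy of Tcf21, so that cells which expressed that gene while tamoxifen was given carry eGFP. Activated cells came from the infarct region after myocardial infarction. They were 27 activated Postn-traced cells and 24 activated Postn-negative cells, all of the capture named Jul29, 44 activated Tcf21-traced cells of the capture Nov4, 28 untraced Postn-positive cells of Jul29 (6 cells), Nov4 (19) and Nov11 (3), and 29 untraced scar cells of Nov11. Resident cells, all of the capture Jul24, are all called uninjured here, although the labels say so of the Tcf21-traced cells and name the rest resident alone, and the study describes such control cells in different places as from uninjured hearts, sham hearts or the remote region. They were 17 resident Tcf21-traced cells, 12 resident CD31- CD45- cells, and 3 and 1 cells of these kinds that were labelled Postn-positive. The label of the 12 resident CD31- CD45- cells also calls them Postn-negative. The Postn-positive and Postn-negative labels refer to the gene Postn itself, so its level in those classes is not a finding. The label of the cells called untraced Postn-positive names no tracing, and was read as untraced. Jul29 also holds Postn-traced and Nov4 Tcf21-traced cells, so the tracing they lack may differ between captures. The study describes 3 mice in each group, but no label names the mouse of a cell. Each class is therefore 1 sample and nothing was tested. Levels are given as class means with the number of cells in which a gene was detected. All uninjured cells share 1 capture, so injury and capture cannot be told apart.

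Snail, Zeb and Twist factors bind short DNA elements called E-boxes. Snail and Zeb factors are known for repressing epithelial adhesion genes when cells take on a migratory, mesenchymal state, and Twist factors act with E protein partners. Prrx and Meox factors carry a homeodomain, which binds elements with a TAAT core, and act in limb, somite and other mesenchyme, while Meox1 and Meox2 are also known in vascular cells and fibroblasts.

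Promoter sequences (RefSeq, GRCm38.p6) were found for 7 of the 10 genes. Those of 1 gene from each of 4 families are shown to let their binding elements be seen, each 300 bases long and 5′ to 3′ on the strand of the gene. For Snai1 (chr2:167537945-167538244, plus strand) and Twist1 (chr12:33957421-33957720, plus strand), capitals mark the E-box CANNTG on either strand. For Prrx1 (chr1:163313601-163313900, minus strand) and Meox2 (chr12:37108290-37108589, plus strand), capitals mark TAAT on either strand, and overlapping matches run together.
Snai1: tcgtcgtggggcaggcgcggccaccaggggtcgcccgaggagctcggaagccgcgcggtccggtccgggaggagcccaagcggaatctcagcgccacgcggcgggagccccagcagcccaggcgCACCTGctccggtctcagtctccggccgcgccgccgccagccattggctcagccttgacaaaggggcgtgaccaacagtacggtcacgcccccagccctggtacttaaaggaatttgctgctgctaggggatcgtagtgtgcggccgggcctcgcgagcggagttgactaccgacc
Twist1: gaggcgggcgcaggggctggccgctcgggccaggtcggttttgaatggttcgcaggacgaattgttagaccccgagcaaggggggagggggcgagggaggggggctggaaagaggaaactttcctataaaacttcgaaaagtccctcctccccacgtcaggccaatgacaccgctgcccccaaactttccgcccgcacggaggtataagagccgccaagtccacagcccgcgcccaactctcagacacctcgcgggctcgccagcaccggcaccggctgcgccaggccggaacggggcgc
Prrx1: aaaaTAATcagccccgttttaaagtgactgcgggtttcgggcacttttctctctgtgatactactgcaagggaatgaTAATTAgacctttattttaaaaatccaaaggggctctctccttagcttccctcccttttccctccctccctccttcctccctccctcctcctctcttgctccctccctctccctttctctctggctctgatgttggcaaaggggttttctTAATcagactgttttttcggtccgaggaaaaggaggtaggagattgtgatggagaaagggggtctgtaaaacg
Meox2: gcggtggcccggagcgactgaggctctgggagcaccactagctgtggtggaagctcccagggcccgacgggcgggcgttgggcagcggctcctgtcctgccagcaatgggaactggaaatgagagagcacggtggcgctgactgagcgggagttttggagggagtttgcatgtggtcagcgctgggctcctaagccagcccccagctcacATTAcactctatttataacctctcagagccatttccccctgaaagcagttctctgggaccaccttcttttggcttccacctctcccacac
The Snai1 window held 1 E-box, which was also the element CAGGTG on the other strand, a form that Snail and Zeb factors bind. CAGGTG on either strand occurred in 20.2% of 32851 promoter windows and CANNTG in 72.3%. No CANNTG lay in the Twist1 window. TAAT matched 4 times in the Prrx1 window, counted on both strands, and 1 in the Meox2 window, against 58.03% of all windows with at least 1. The window of Prrx2, which is not shown, held 0. It spans chr2:30845117-30845416, inside the annotated gene and away from its annotated start, which the Prrx1 and Meox2 windows take in. A match is a description of the letters in these windows only.

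The factors were sparse in single cells. Detection in a cell means a value above 5 TPM, the share of a transcript among all those of the cell after correction for length. By this measure the order over all cells ran from Zeb1 (106 cells, 57.3%, exact 95% Clopper-Pearson interval 49.8% to 64.5%) and Zeb2 (99 cells, 53.5%, 46.05% to 60.9%) to Prrx1 (90 cells, 48.6%, 41.2% to 56.1%) and Meox1 (79 cells, 42.7%, 35.5% to 50.2%), whose intervals overlap from each to the next. Snai1 followed in 40 cells, Meox2 in 39, Twist1 in 28 and Snai2 in 23. Twist2 and Prrx2 were each detected in 8 cells (4.32%, 1.89% to 8.34%). With any value over 0 counted Zeb2 came before Zeb1, as they were listed at 0 in 40 and 54 cells. The order also differed between classes, with Prrx1 first in activated Tcf21-traced cells and Zeb2 in untraced Postn-positive cells. All intervals here cover counting error only. A value of 0 is not absence, since Polr2a, which every cell needs, was listed at 0 in 105 cells, and Tbp in 160.

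**Figure D1:**
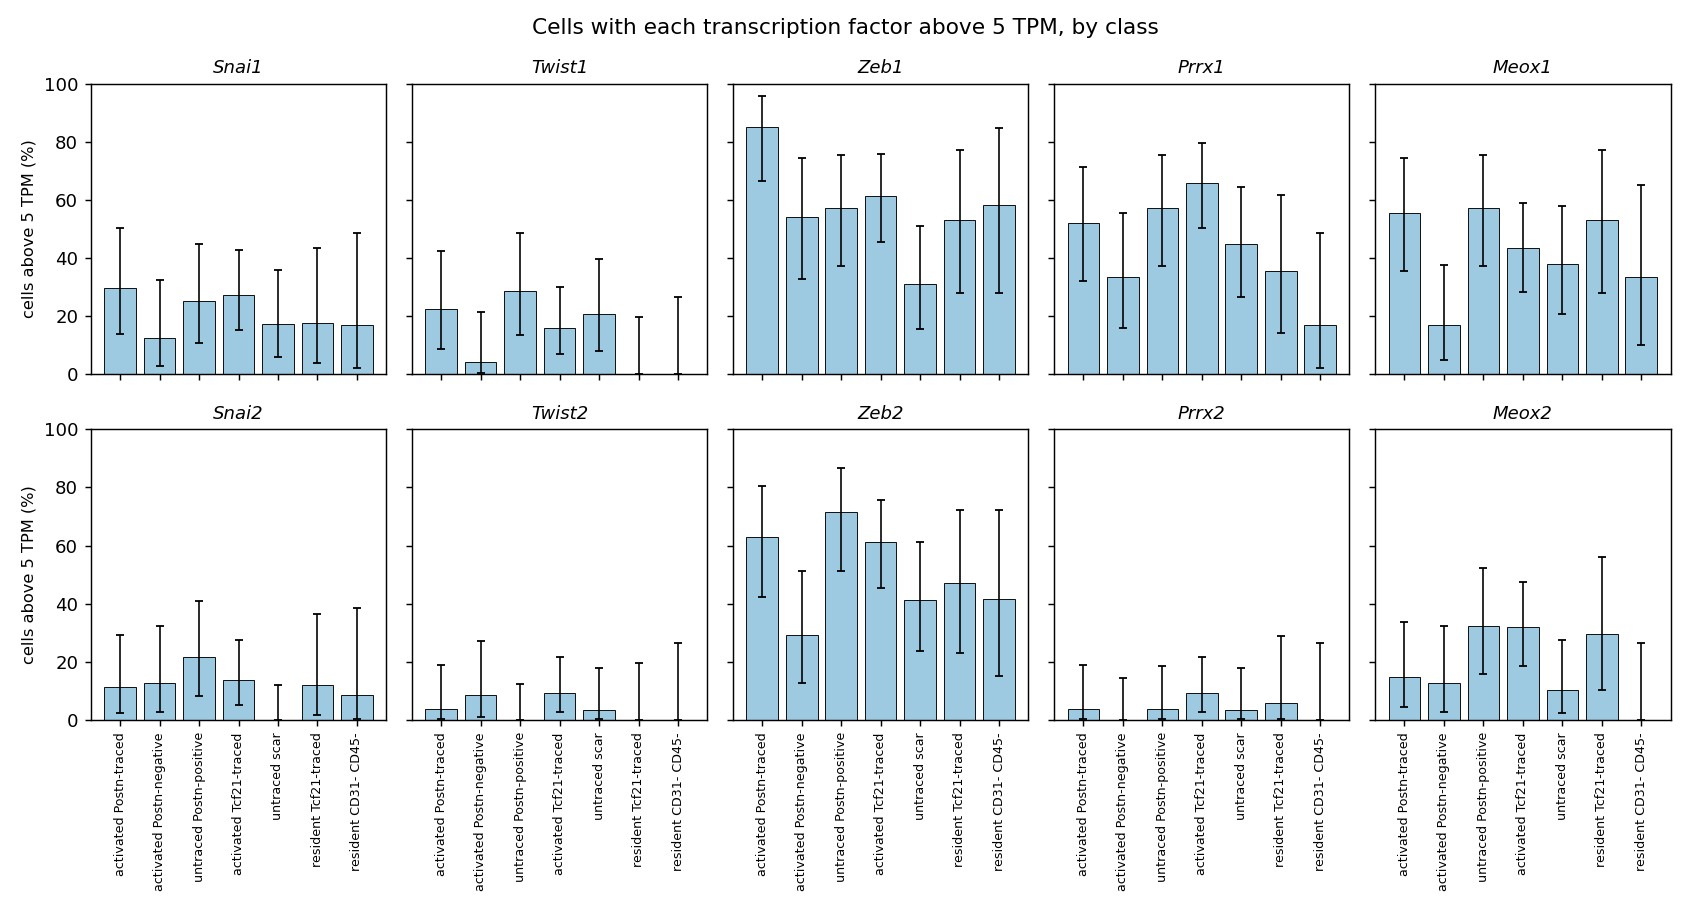
Share of cells with each transcription factor above 5 TPM (percent) in the 7 classes of at least 12 cells, with exact 95% intervals for counting error. Zeb1 reached its highest share, 85.2%, in the activated Postn-traced cells, and Twist2 and Prrx2 stayed under 10% in every class drawn.

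The number of genes above 5 TPM, used in place of depth, which is not known for each cell, differed between classes. Its median was 3643 in the activated Postn-traced cells (2155 to 4541) and 2342 in the activated Postn-negative cells (1809 to 4881), although both came from 1 capture. Among Tcf21-traced cells it was 3134 where activated and 2264 where resident, and resident CD31- CD45- cells had 2092. Untraced scar cells ran from 141 to 4394 genes, and 6 of them had under 50% of the median of their capture.

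Of the 10 factors, activated Postn-traced cells had a median of 3 detected (1 to 6) and activated Postn-negative cells a median of 2 (0 to 5). The activated Tcf21-traced cells had a median of 4 (1 to 6), and the untraced Postn-positive cells 3 (0 to 7). That median of 4 fell to 2 at a minimum of 20 TPM and among cells with 2000 to 3000 genes, a range chosen after the data were seen. Over all cells of the class the mean number was 3.39, beside 3.41 in activated Postn-traced and 3.54 in untraced Postn-positive cells. With 2000 to 3000 genes, the 5 activated Postn-traced cells had 2, 1, 1, 2 and 2 factors. The activated Postn-negative cells there had from 0 to 5, so a higher number in traced cells was not kept. Untraced scar cells, resident Tcf21-traced cells and resident CD31- CD45- cells each had a median of 2. Within classes, more factors were detected in cells with more genes in some classes and not in others. Pearson's r was 0.77 in the 29 untraced scar cells, 0.64 in the 28 untraced Postn-positive cells (0.40 in the 19 of Nov4), 0.54 among 44 activated Tcf21-traced cells, 0.52 among 12 resident CD31- CD45- cells and 0.51 in the 27 activated Postn-traced cells, but -0.15 in the 24 activated Postn-negative cells and -0.03 in the 17 resident Tcf21-traced cells. The points of a class share a capture, apart from the untraced Postn-positive cells. The part of genes per cell in the differences between classes was not tested.

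**Figure D2:**
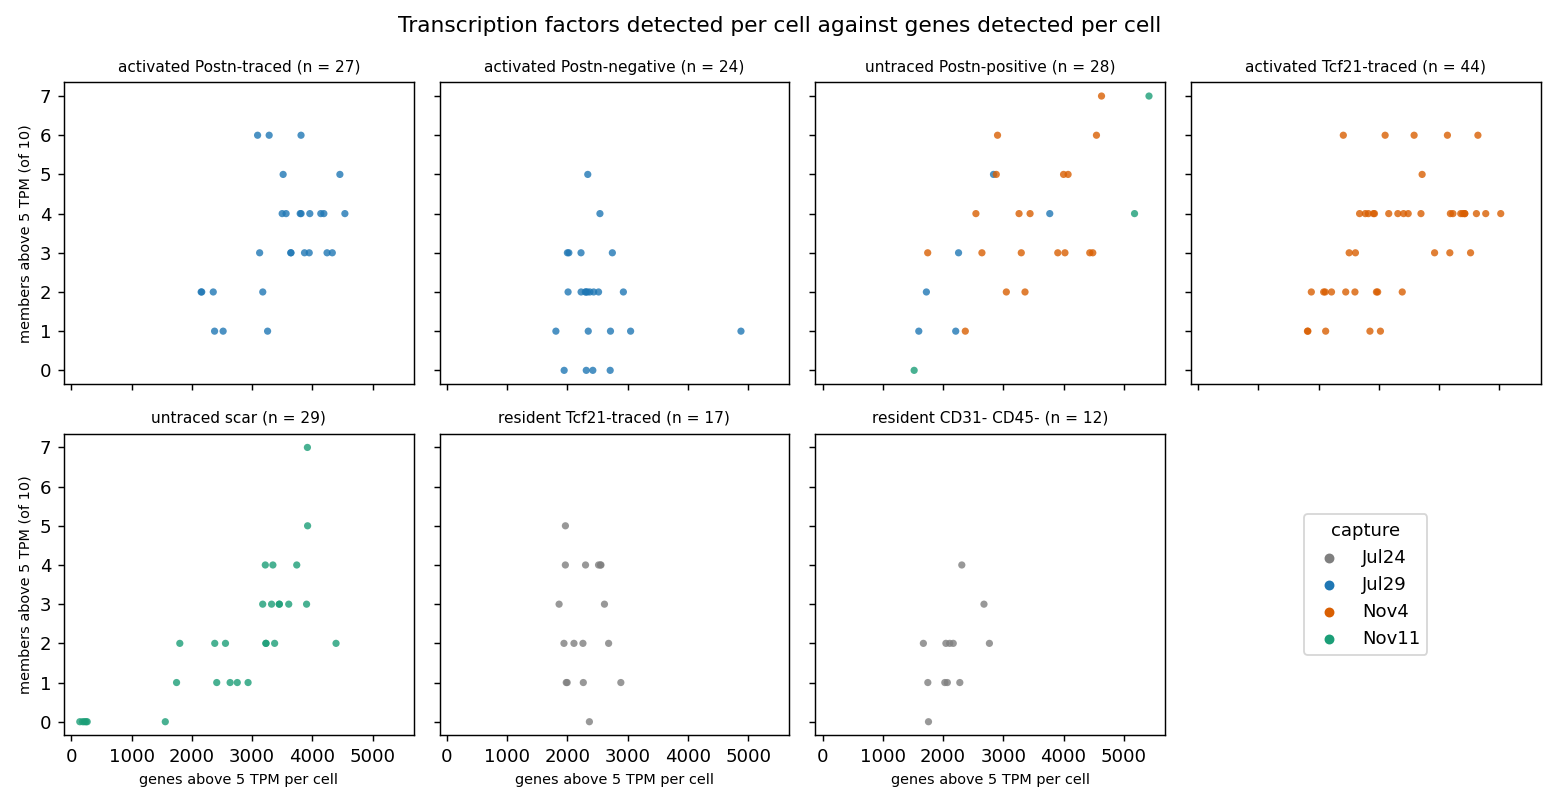
Number of the 10 factors above 5 TPM in each cell against the number of genes above 5 TPM in that cell, for the 7 classes of at least 12 cells, coloured by capture. The cluster of untraced scar cells at the left has few genes and no factor detected.

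Zeb1 and Zeb2, large zinc finger repressors, were the most widely detected pair. Zeb1 was detected in 23 of 27 activated Postn-traced cells (85.2%, 66.3% to 95.8%), with values from 0 to 8.69 and a median of 5.67 log2 (TPM+1). In activated Postn-negative cells it was detected in 13 of 24 (54.2%, 32.8% to 74.4%), from 0 to 10.51 with a median of 5.47. More of the traced cells had Zeb1, but their intervals overlapped and where detected the level was not higher, with a median over such cells of 5.99 against 7.54. The gap narrows when any value counts, since Zeb1 was listed at 0 in 4 of the 27 traced and 6 of the 24 negative cells, and with 2000 to 3000 genes per cell 3 of 5 and 10 of 20 had it. The share was 61.4% in activated Tcf21-traced, 57.1% in untraced Postn-positive, 52.9% in resident Tcf21-traced and 58.3% in resident CD31- CD45- cells. Untraced scar cells were lowest at 9 of 29 (31.03%, 15.3% to 50.8%).

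Zeb2 was detected in 17 of 27 activated Postn-traced cells (62.96%, 42.4% to 80.6%) and in 7 of 24 activated Postn-negative cells (29.2%, 12.6% to 51.1%). Its median level was 2.94 (0 to 6.89) in the former and 1.44 (0 to 7.88) in the latter. Many Zeb2 values lay close to the minimum, and with any value over 0 counted, the shares were 85.2% and 70.8%. With 2000 to 3000 genes per cell the order was the other way, with Zeb2 in 1 of 5 traced and 7 of 20 negative cells. Among the other classes of at least 12 cells Zeb2 ran from 41.4% of untraced scar cells to 71.4% of untraced Postn-positive cells. The antisense gene Zeb2os overlaps the span of Zeb2 on the other strand and is measured as a gene of its own.

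Both Zeb genes were detected together in 63 cells (34.1% of all, 27.3% to 41.4%), Zeb1 alone in 43, Zeb2 alone in 36 and neither in 43. In the activated Postn-traced cells 15 of 27 had both (55.6%, 35.3% to 74.5%), against 4 of 24 activated Postn-negative cells (16.7%, 4.74% to 37.4%). In the same range of genes per cell both were detected in 1 of 5 traced and 4 of 20 negative cells, so the difference was not kept there. In infarct and uninjured cells the shares with both were alike, 34.2% of 152 and 33.3% of 33.

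Meox1, a homeodomain factor, had the largest difference of class means of log2 (TPM+1) among the 10 factors between activated Postn-traced and Postn-negative cells. On the log2 of the mean TPM Meox1 did not lead, as Snai1 was higher in traced cells by 1.89, against 1.45 for Meox1. By that measure Twist1, detected in 6 of 27 traced and 1 of 24 negative cells, was higher by more than either. Meox1 was detected in 15 of 27 activated Postn-traced cells (55.6%, 35.3% to 74.5%), with values from 0 to 9.07 and a median of 4.17 log2 (TPM+1). Of 24 activated Postn-negative cells 4 had Meox1 (16.7%, 4.74% to 37.4%), from 0 to 8.93 with a median of 0. These values overlap over nearly their whole range, and the classes differ in how many cells had Meox1.

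Untraced Postn-positive cells had Meox1 in 16 of 28 (57.1%), or 13 of the 19 of the capture Nov4, 2 of the 6 of Jul29 and 1 of the 3 of Nov11. Activated Tcf21-traced cells had it in 19 of 44 (43.2%) and untraced scar cells in 11 of 29 (37.9%). Uninjured cells had Meox1 as often as infarct cells, 14 of 33 (42.4%, 25.5% to 60.8%) against 65 of 152 (42.8%, 34.8% to 51.03%). Resident Tcf21-traced cells reached 9 of 17 (52.9%) and resident CD31- CD45- cells 4 of 12 (33.3%). The highest value of all, 11.10, was that of the single resident CD31- CD45- Postn-positive cell.

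Meox2 was rarer. It was detected in 14 of 44 activated Tcf21-traced (31.8%, 18.6% to 47.6%), 9 of 28 untraced Postn-positive (32.1%) and 5 of 17 resident Tcf21-traced cells (29.4%), and in 0 of 12 resident CD31- CD45- cells, which allows a share of up to 26.5%. Activated Postn-traced cells had Meox2 in 4 of 27 and activated Postn-negative cells in 3 of 24, so that it did not follow Meox1 there. Meox1 and Meox2 were detected together in 21 cells, Meox1 alone in 58 and Meox2 alone in 18. The single resident CD31- CD45- Postn-positive cell had both, with Meox2 at 9.84.

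**Figure D3:**
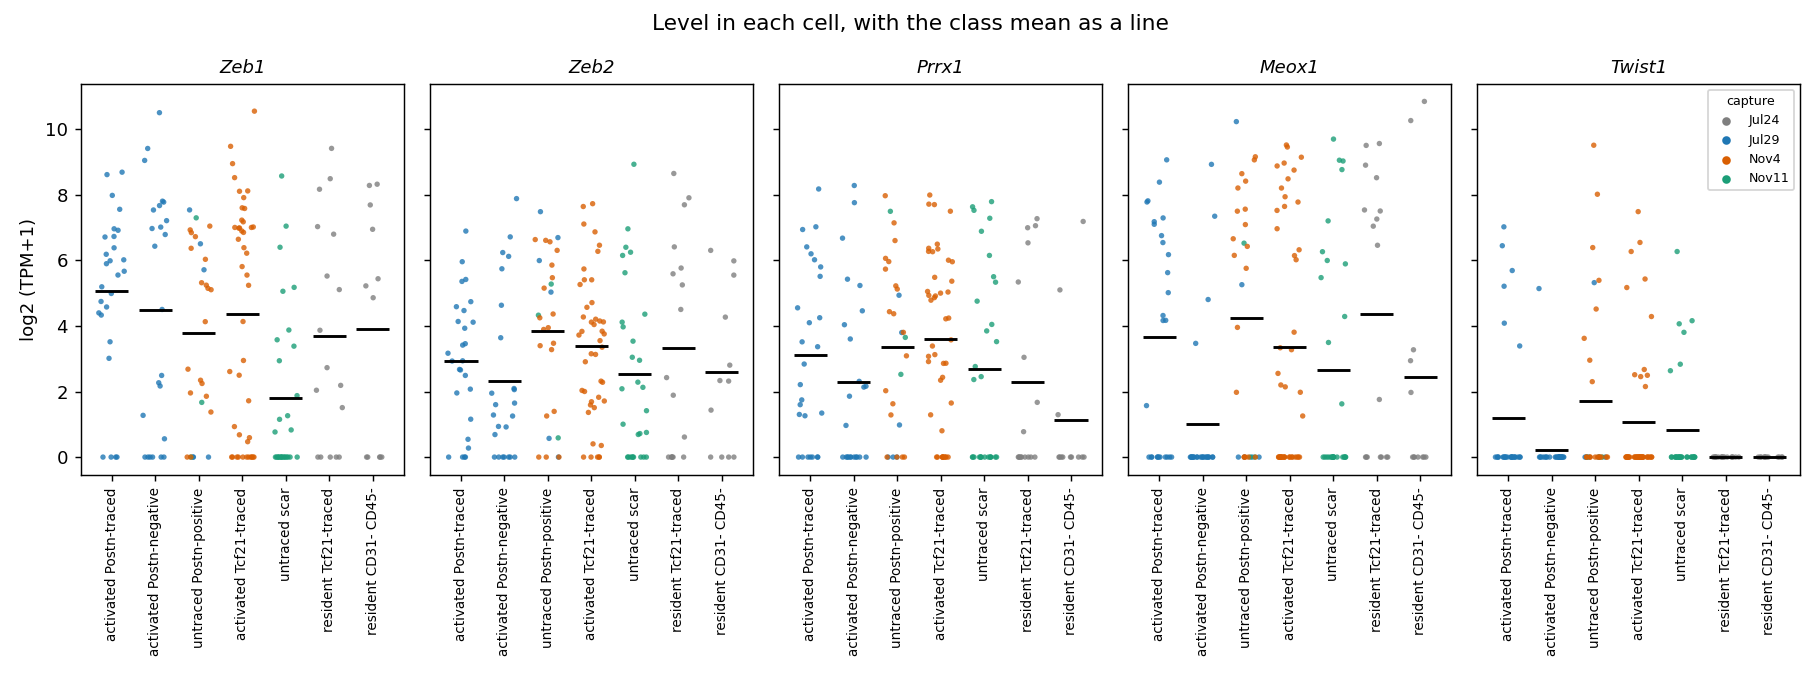
Level of Zeb1, Zeb2, Prrx1, Meox1 and Twist1 in each cell, in log2 (TPM+1), by class, with the class mean as a line and captures as colours. Points at 0 are cells in which the gene was listed at 0, and all resident cells drawn are at 0 for Twist1.

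Prrx1, a homeodomain factor of limb and connective tissue mesenchyme, was detected in 29 of 44 activated Tcf21-traced cells (65.9%, 50.1% to 79.5%) and 6 of 17 resident Tcf21-traced cells (35.3%, 14.2% to 61.7%). Its median level was 3.90 (0 to 7.99) in the former and 0 (0 to 7.27) in the latter. It was detected in 80 of 152 infarct cells (52.6%, 44.4% to 60.8%) and 10 of 33 uninjured cells (30.3%, 15.6% to 48.7%), whose median genes per cell were 3072 and 2258. Among cells with 2000 to 3000 genes, a range chosen after the data were seen, the shares were 41.1% of 56 infarct cells and 26.1% of 23 uninjured cells. Prrx2 was found in 8 cells, 5 of them with Prrx1, at levels from 3.55 to 8.80.

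Twist1, a basic helix-loop-helix factor, was listed at 0 in all 33 uninjured cells, which allows a share of up to 10.6%, and was detected in 28 of 152 infarct cells (18.4%, 12.6% to 25.5%). Every class of at least 12 infarct cells had some. The shares were 28.6% of untraced Postn-positive, 22.2% of activated Postn-traced, 20.7% of untraced scar, 15.9% of activated Tcf21-traced and 4.17% of activated Postn-negative cells, with intervals that overlap. Where detected, Twist1 lay between 2.63 and 9.51 with a median of 5.19. Among cells with 2000 to 3000 genes, it was detected in 5 of 56 infarct cells (8.93%, 2.96% to 19.6%) and 0 of 23 uninjured cells (up to 14.8%), with intervals that overlap. Twist2 was detected in 8 infarct cells and no uninjured cell, and with Twist1 in 2 of them.

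Snai1, a zinc finger repressor, was detected in 8 of 27 activated Postn-traced cells (29.6%, 13.8% to 50.2%) and 3 of 24 activated Postn-negative cells (12.5%, 2.66% to 32.4%), with medians of 0 in both and highest values of 9.14 and 8.52. In the other classes of at least 12 cells its share ran from 16.7% to 27.3%. Snai2 was detected in 11.8% of infarct cells and 15.2% of uninjured cells, and in 0 of 29 untraced scar cells (up to 11.9%). Both Snail genes were detected in 8 cells, against 32 with Snai1 alone and 15 with Snai2 alone.

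The sets of factors detected varied from cell to cell, and since a value of 0 is not absence they are sets of detections. The 27 activated Postn-traced cells showed 23 distinct sets of detected factors, and the commonest, Zeb1 with Zeb2 and Prrx1, was found in 3 cells. The 44 activated Tcf21-traced cells showed 35 sets. All 4 of Zeb1, Zeb2, Prrx1 and Meox1, the factors detected in at least 25% of cells, were found together in 19 cells, and none of them in 18.

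Activated Postn-traced and Postn-negative cells of the infarct region, from the same capture, address which genes mark periostin-lineage myofibroblasts. A gene entered where it was detected in at least 10% of the cells of either class, and was counted where the class means of log2 (TPM+1) lay more than 1 unit apart. Of 8 factors that entered, 2 were more than 1 unit higher in traced cells, beside 28.4% of 9251 genes, and 0 were lower, beside 3.99%. The count of higher factors is near the background. Meox1 averaged 3.67 (n = 27) in traced cells and 1.02 (n = 24) in negative cells, a difference of 2.64 that was larger than those of 97.1% of the genes. Snai1 averaged 2.33 and 0.88, a difference of 1.45 that was 0 by medians over cells. Both differences are smaller than the SD between traced cells. The median difference was 0.73 over the 8 factors and 0.56 over all genes entered.

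With cells of 2000 to 3000 genes alone, a range chosen after the data were seen, which left 5 traced and 20 negative cells, the difference was 2.72 for Meox1 and 0.68 for Snai1. The differences of 5 factors changed sign. That of Prrx1 went from 0.83 to -2.64, with 0 of 5 traced and 8 of 20 negative cells. Zeb2 went from 0.63 to -1.90, and Zeb1 from 0.58 to -0.90. Of the 8 factors, Meox1 alone stayed more than 1 unit higher, with 3 of 5 traced and 4 of 20 negative cells. Twist1 went from 0.97 to -0.26 and Snai2 from 0.16 to -0.74. These are few cells, and the part of genes per cell was not tested.

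Activated and resident Tcf21-traced cells compare 1 lineage with and without injury, in separate captures. Here 2 of 8 factors were more than 1 unit higher in activated cells, beside 30% of 8854 genes, and 0 were lower, beside 4.71%. Prrx1 averaged 3.61 (n = 44) in activated and 2.28 (n = 17) in resident cells. Twist1 averaged 1.08 in activated cells and was listed at 0 in all resident ones. Meox1 lay the other way, at 3.37 and 4.36, a difference of -0.99, with medians over cells of 2.06 and 6.46. Medians of Zeb1 were 5.68 in activated and 2.73 in resident cells, and those of Zeb2 3.64 and 2.42. With a pseudocount of 5 in place of 1, 0 factors were more than 1 unit higher. On the log2 of the mean TPM the difference of Prrx1 was 0.30 and that of Twist1 3.53. By medians that of Prrx1 was 3.90 and that of Twist1 was 0. Median genes per cell were 3134 and 2264, and among cells with 2000 to 3000 genes, 17 and 11, neither factor was past 1 unit, with Prrx1 at 0.94 and Twist1 at 0.54. There Zeb2, detected in 11 of the 17 and 3 of the 11 cells, was more than 1 unit higher, and Snai1 was at -1.29, from 0.49 with all cells, while Snai2 also changed sign. Tek, an endothelial marker, was lower in activated cells, at 1.37 (12 of 44 cells) and 2.59 (8 of 17), a difference of -1.22 that was -0.81 in that range. The mean TPM of the 5 endothelial markers measured summed to 16.9 and 49.8, with Tek at 13.6 and 49.8. Kdr and Emcn were listed at 0 in both classes, and Pecam1 and Egfl7 in the resident one. The part of Tek in the differences was not tested.

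Activated Postn-negative cells and resident CD31- CD45- cells are infarct and uninjured cells of separate captures. Their labels name no tracing. The former share a capture with Postn-traced cells and the latter with Tcf21-traced cells, so the tracing they lack may differ. In Postn-negative cells 1 of 7 factors was more than 1 unit higher, beside 22% of 7347 genes, and 1 was lower, beside 10.9%. Prrx1 averaged 2.29 (n = 24) in Postn-negative and 1.13 (n = 12) in resident cells. Meox1 averaged 1.02 and 2.44. Their differences were 1.13 and -1.81 among cells with 2000 to 3000 genes, 20 and 9, but with a pseudocount of 5 neither was past 1 unit, and by medians that of Meox1 was 0. Those of Zeb1 and Zeb2 changed sign in that range. Of 6 fibroblast markers Tcf21 alone was past 1 unit, higher by 3.35 in Postn-negative cells and by 3.97 in that range. The part of Tcf21 in the differences was not tested.

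Activated Tcf21-traced cells and the untraced Postn-positive cells of the same capture, Nov4, showed 0 of 8 factors more than 1 unit higher in the former, beside 5.43% of 9679 genes, and 2 lower, beside 8.21%. Meox1 averaged 3.37 (n = 44) in traced and 5.08 (n = 19) in untraced cells. Twist1 averaged 1.08 and 2.25. The untraced cells had been labelled Postn-positive, and the traced cells not by Postn. Among cells with 2000 to 3000 genes, 17 and 5, the difference of Meox1 went from -1.71 to -0.84, that of Twist1 from -1.17 to -2.08, and that of Snai2 from -0.36 to -2.48. Those of Snai1, Zeb2 and Meox2 changed sign, from 0.14 to -1.14, from -0.41 to 0.74 and from -0.24 to 0.04. Over 7 alternatives the difference of Twist1 ran from -2.42 to 0, the latter by medians, and was -0.79 with a pseudocount of 5. That of Meox1 ran from -4.37 to -0.38, the latter on the log2 of the mean TPM.

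Between the resident classes, of 1 capture, 3 of 7 factors were more than 1 unit higher in Tcf21-traced cells, beside 18.3% of 7443 genes, and 0 lower, beside 13.6%. Meox2 averaged 1.95 (n = 17) in Tcf21-traced cells and was listed at 0 in all 12 CD31- CD45- cells. Meox1 averaged 4.36 and 2.44, and Prrx1 2.28 and 1.13. On the log2 of the mean TPM the Meox1 difference was reversed, at -0.51. That of Prrx1 went from 1.14 to 0.58 among cells with 2000 to 3000 genes, 11 and 9, where those of Snai1 and Zeb2 changed sign. By medians over cells the differences of Prrx1 and Meox2 were 0, while that of Meox1 was 6.46. That of Meox2 was 7.15 on the log2 of the mean TPM, and with a pseudocount of 5 that of Prrx1 was 0.72. In all 5 comparisons the differences of factors past 1 unit were smaller than the larger SD between cells.

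**Figure D4:**
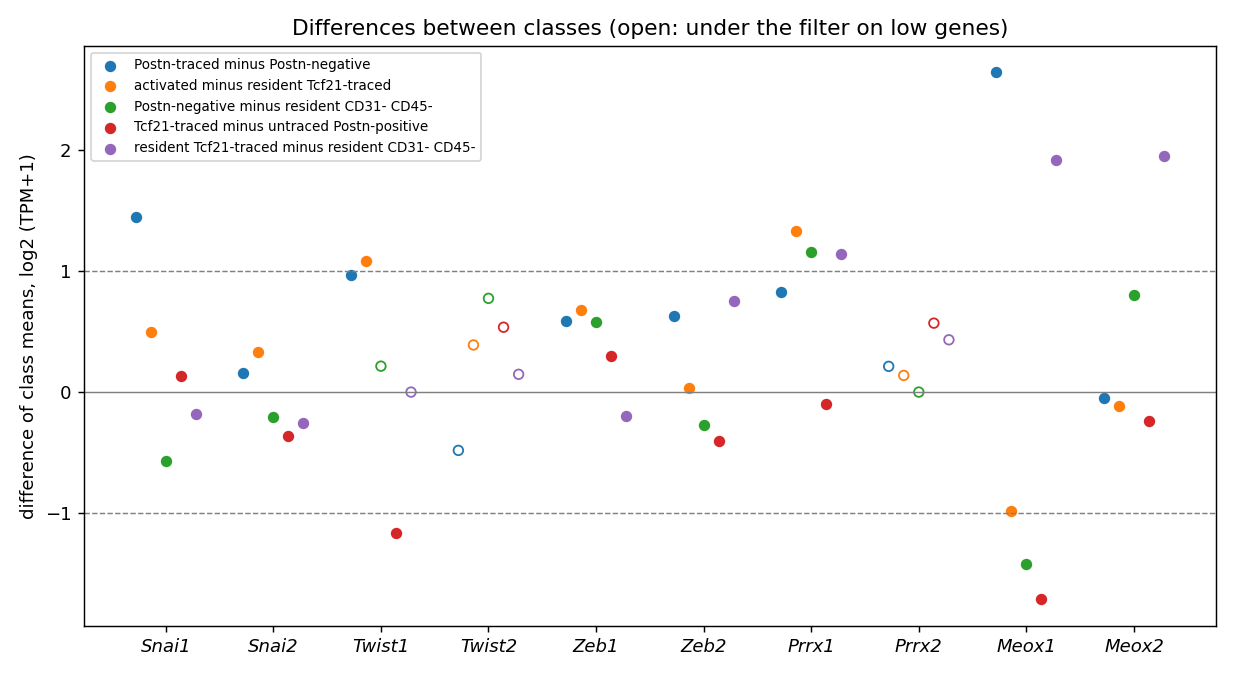
Difference of class means in log2 (TPM+1) for each factor in the 5 comparisons, with dashed lines at 1 unit either way and open circles where the gene was detected in too few cells to enter. Meox1 spans the widest range, from -1.71 to 2.64.

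Genes that act with or downstream of the factors were read in the activated Postn-traced and Postn-negative cells. Of 12 mesenchymal genes of which several are known targets, all entered, 9 were more than 1 unit higher in traced cells, beside 28.4% of all genes, and 0 lower, beside 3.99%. Their median difference was 3.05 beside 0.56 over all genes. The count takes in Postn, which had defined the classes, so 8 others were higher. The study describes matrix genes as expressed in these same traced cells, and the list was chosen with earlier results known. The count and the median are therefore no independent finding. Fibronectin (Fn1) averaged 9.48 in traced and 3.50 in negative cells. N-cadherin (Cdh2), which rises in cells that lose epithelial adhesion, averaged 3.45 in traced cells and was listed at 0 in all negative cells. Tnc, an extracellular matrix protein of wounds, averaged 5.26 and 0.33. They were detected in 27, 16 and 19 of 27 traced cells, and in 11, 0 and 1 of 24 negative cells. The others were Cdh11, Sparc, Col1a1, Col1a2 and Acta2. With Postn included, 8 of the 9 remained more than 1 unit higher among cells with 2000 to 3000 genes. There the difference of Cdh11 was 0.87, while that of Cdh2 went from 3.45 to 1.09, that of Acta2 from 3.29 to 1.10 and that of Tnc from 4.93 to 2.78.

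Of 12 epithelial genes that Snail and Zeb factors are known to repress or oppose, 4 were among the genes measured and 0 entered. Cldn7 and Grhl2 were each detected in 2 of all cells, and Esrp1 and Ovol1 in 0. Of the partner and inhibitor genes, 6 entered. In traced cells 1 was more than 1 unit higher, beside 28.4% of all genes, and 1 lower, beside 3.99%. The E protein gene Tcf4 was lower in traced cells, at 5.96 against 7.34. Id1, which encodes an inhibitor of such partners, averaged 1.31 against 0 in all negative cells, and was detected in 6 of 27 traced cells. The related inhibitor genes Id2 and Id3 averaged 6.19 and 9.87 in traced cells, against 6.04 and 9.83 in negative cells. Of 10 corepressor and stability genes that entered, 3 were more than 1 unit higher, beside 28.4% of all genes, so the count is near the background. They were Kdm1a, a histone demethylase, at 3.05 against 1.51, Smarca4, a chromatin remodeller, at 2.09 against 0.33, and Usp9x, a deubiquitinase, at 5.26 against 3.28. Among cells with 2000 to 3000 genes the difference of Kdm1a changed sign, from 1.54 to -0.20, that of Usp9x was 0.87 and that of Id1 was 0, while Smarca4 was at 1.86 and Tcf4 at -1.55.

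Among 20 other transcription factors of mesenchyme, 14 entered, 4 were more than 1 unit higher, beside 28.4% of all genes, and 4 lower, beside 3.99%, with a median difference of -0.37. The count of higher genes is near the background. Runx1 differed most of these, at 4.91 in traced cells, where 21 of 27 had it, and 0.28 in negative cells, where 1 of 24 had it. Gata6 averaged 4.51 and 2.40, and Runx2 and Foxs1 were also higher. Among cells with 2000 to 3000 genes Runx1 remained higher by 2.52, while Gata6 went from 2.10 to -1.59, Foxs1 from 1.16 to -0.48 and Runx2 from 1.47 to -0.04. Tcf21, a factor of resident fibroblasts, was lower, at 3.92 and 6.60, as was Klf4, at 6.54 and 8.90. Sox9 and Egr1 were the other genes that were lower, with differences of -2.23 and -2.30 among cells with 2000 to 3000 genes. The difference of Sox9 was -0.20 on the log2 of the mean TPM and -0.79 with a pseudocount of 5. With each cell centred on its median detected gene, those of Sox9 and Egr1 were -0.63 and -0.67.

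For the 4 factors detected in at least 25% of cells, the genes most like each were sought over all cells after each value was centred on its class and capture, among 5038 genes. The cells share captures, and cells with more genes have more of most genes. Meox1 had the highest values, with Cilp, a cartilage intermediate layer protein, at r = 0.48, the collagen gene Col8a1 at 0.45 and Ltbp4, which binds latent TGF-beta complexes, at 0.37. Within classes its r was 0.29 with Postn and 0.22 with Tcf21. The nearest genes to Prrx1 were Tmem176a (0.39), Inpp4a (0.37) and Dclk1 (0.36). Those of Zeb1 were Mrps18c (0.35), Brox (0.32) and Bcl2l1 (0.32), and those of Zeb2 were Arpc4 (0.33), Trim8 (0.31) and Sumo2 (0.31). Genes per cell had an r of 0.35 with Prrx1, 0.26 with Zeb2, 0.22 with Zeb1 and 0.14 with Meox1, so the weaker values are no finding. Without the 7 cells that had under 50% of the median genes of their capture, Sumo2 fell to place 13 among the genes nearest to Zeb2, with an r of 0.24, and Arpc4 had 0.26. Dclk1 and Ltbp4 came to place 4 for Prrx1 and Meox1, and the other 9 genes, Arpc4 included, stayed among the nearest 3. By Spearman's rank correlation over all cells Bcl2l1 came to place 11, Ltbp4 to 8, Inpp4a to 5 and Arpc4 to 4. The other genes named stayed among the nearest 3 by that measure. Between the factors r was 0.24 for Zeb2 with Prrx1, 0.11 for Zeb1 with Zeb2 and -0.10 for Meox1 with Prrx1.

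At least 3 of 6 fibroblast markers were detected in 180 cells, in all 27 activated Postn-traced and all 24 activated Postn-negative cells, and the list's most abundant gene was Dcn. Of these 6 markers Col1a1, Col1a2 and Col3a1 were more than 1 unit higher in traced cells, beside 28.4% of all genes, and Tcf21 lower, beside 3.99%. Of 6 smooth muscle markers 3 entered, and 2 of these, Tagln and Acta2, were more than 1 unit higher in traced cells, also beside 28.4%, which is too few genes to read against that share. Smtn averaged 1.65 in traced and 2.37 in negative cells, and Des 0.28 and 0.47. At least 3 of the 6 were detected in 4 of 27 traced and 0 of 24 negative cells, and their mean TPM summed to 753 and 106, led by Tagln at 514 in traced cells. Myh11, a defining marker, was detected in 1 traced and 0 negative cells, and Cnn1 in none of either class. Between activated and resident Tcf21-traced cells, at least 3 of the markers were detected in 10 of 44 and 0 of 17 cells, with sums of 465 and 103 TPM. Tagln and Acta2 were also more than 1 unit lower in activated Tcf21-traced than in untraced Postn-positive cells of Nov4, by differences of -2.12 and -1.20, which were 0.96 and 0.13 among cells with 2000 to 3000 genes. Acta2 was higher by 1.08 in resident Tcf21-traced than in resident CD31- CD45- cells, and Smtn was more than 1 unit higher in activated Postn-negative than in resident CD31- CD45- cells. The part of these markers in the differences was not tested. At least 3 markers were found in 0 cells for endothelium, 2 for myeloid cells, 2 for pericytes, 1 for cardiomyocytes, 1 for epicardium and 1 for Schwann cells. Of the myeloid cells 1 was among the 12 resident CD31- CD45- cells, where the mean TPM of the 5 myeloid markers measured summed to 1426, led by Cd14 at 661, against 21.96 in resident Tcf21-traced and 7.18 in activated Postn-negative cells. Without it, an alternative added after the data were seen, the same factors lay more than 1 unit apart in both comparisons with this class, and Meox1 differed by -1.64 and 1.69.

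In the annotation GENCODE vM21 (GRCm38, the mm10 build of the submitters' processing notes), Snai1 lies at chr2:167538195-167542814, Snai2 at chr16:14705852-14709385, Twist1 at chr12:33957671-33959829, Twist2 at chr1:91801461-91848028, Zeb1 at chr18:5591860-5775467, Zeb2 at chr2:44983632-45117395, Prrx1 at chr1:163245119-163313710, Prrx2 at chr2:30834972-30881251, Meox1 at chr11:101877510-101894374 and Meox2 at chr12:37108540-37179534. The members of a pair could share reads where their transcripts are identical. The longest identical stretch was 35 bases, in Zeb1 and Zeb2, and no pair shared a stretch as long as a read of 100 bases. Gm10125 overlaps Zeb1 on the other strand and is measured as a gene of its own.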

How the data were processed

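Single cells were captured on the Fluidigm C1 system, with cDNA made by SMARTer chemistry and libraries by Nextera tagmentation. The submitters' processing notes name Bowtie 1.0.0, eXpress 1.5.1 and the mm10 build. The authors deposited log2 (TPM+1) for each gene and cell. The title of the deposited table says FPKM and its header TPM, and on the linear scale cell totals lay between 999257 and 1000000, so TPM was taken as the unit. The study states an average read depth over cells, and that of each cell is not known.

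Cells were grouped by their labels, and no 2 cells had identical values. Class means of log2 (TPM+1), shares of cells above 5 TPM with exact 95% intervals, and 5 differences between classes were computed. No test was run, since no label names a mouse. The named genes are mainly the 10 factors and genes of fixed lists. The 3 genes most correlated with each factor detected in at least 25% of cells, among genes detected in at least 20%, are also named. Genes of the lists are named where more than 1 unit apart between Postn-traced and Postn-negative cells. Some markers, inhibitor genes and epithelial genes that were not past 1 unit there are named too. The factors and the lists were chosen with earlier results of these data known. Calculations were tested on simulated data. Calculations used NumPy 2.4.6 and SciPy 1.17.1 with pandas 2.3.3, figures Matplotlib 3.10.9, all under Python 3.11.15. Alternatives changed 1 choice at a time.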

Additional observations from a re-analysis of the deposited data

How the results depend on the processing

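Counts of factors more than 1 unit apart are small and moved with most choices of scale. With medians over cells, 1 (Meox1) was lower in activated than resident Tcf21-traced cells. By medians 0 were lower in Postn-negative than resident CD31- CD45- cells, and 1 was lower in Tcf21-traced than untraced cells. Between residents 1 was higher and 1 lower by medians. With the log2 of the mean TPM, 2 were lower in Postn-traced cells, 1 was higher and 2 lower in activated Tcf21-traced cells, 2 were higher and 3 lower in Postn-negative cells than in residents, 1 was higher in Tcf21-traced than untraced cells, and 1 was lower between residents, where the difference of Meox1 was reversed at -0.51. A pseudocount of 0.1 gave 6 higher in Postn-traced cells, 1 lower in activated Tcf21-traced cells and 3 higher in Postn-negative cells than in residents. A pseudocount of 5 gave 0 higher in activated Tcf21-traced cells, 0 higher and 0 lower in Postn-negative cells than in residents, and 1 lower in Tcf21-traced than untraced cells.

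Centring each cell adds 1 value to every gene of a comparison. It gave 6 higher in Postn-traced cells, beside 54.7% of all genes, and moved the median over all genes there from 0.56 to 1.08, so this count says nothing of the factors. In Tcf21-traced against untraced cells it moved the share of higher among genes past 1 unit from 39.8% to 14.8%. The cause was not tested. Cells with 2000 to 3000 genes, chosen after seeing the data, gave 1 higher and 2 lower in Postn-traced cells, and 1 higher (Zeb2) and 1 lower (Snai1) in activated Tcf21-traced cells, neither of which was past 1 unit with all cells used, from fewer cells. The median number of factors in activated Tcf21-traced cells fell from 4 to 2 there and to 2 at a minimum of 20 TPM. The other counts and medians stayed within 1.5 times or 1 SD, and leaving out cells with few genes, the filter on low genes or, as an added alternative, cells with myeloid markers moved none of these. The difference of Meox1 between Postn-traced and Postn-negative cells ran from 1.45 to 4.17 over 7 alternatives. No paired analysis was possible because no label pairs cells across classes and no test was run. The small classes, and depth and mouse not known cell by cell, limit every difference given.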
